A study of Homo sapiens with 12 samples.

Results

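The genes described here are 9 complement factors and regulators, C3, CFB, CFI, C4BPB, C1S, SERPING1, CD46, CD55 and CD59, chosen by symbol and matched to the Ensembl identifiers of a count table with 60675 gene identifiers. All 9 were found, and 6 of them passed the filter on low counts and were among the 15374 genes tested. Complement is a cascade of plasma and cell-derived proteins that marks and perforates microbes. Its pathways meet at C3, which convertases built on C4b and C2a or on C3b and the Bb fragment of factor B (CFB) cleave. Host cells are protected by soluble inhibitors and by proteins of their own surface. Intestinal epithelial cells are known to produce C3 and factor B when exposed to inflammatory cytokines, and to carry CD46, CD55 and CD59 on their surface.

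RNA was sequenced from HT29, an established line from a human colorectal adenocarcinoma, after 24 h with a water extract of ACD (Aconitum carmichaeli Debeaux) at a low dose of 20 µg/mL, a medium dose of 100 µg/mL or a high dose of 500 µg/mL, or with the vehicle, which is labelled 2% DMSO and described as PBS containing it. By the study's methods, the extract stock was made in the same solvent and was diluted in the growth medium. Each of the 4 groups had 3 libraries, 12 in all, and the same vehicle libraries served all 3 doses. The labels do not say whether the replicates were separate cultures, so p-values measure the spread between these libraries, which may be technical. A longer treatment note of the libraries is about Poria cocos instead. Grouping followed the library titles and treatment labels, where ACD is named.

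The smallest library, high-dose replicate 2, held 15941255 expected counts, and the largest, high-dose replicate 3, held 33866644. All 12 colon epithelial markers examined, such as EPCAM, KRT8 and KRT18, had a mean over 1 CPM, the count scaled to a library of standard size, in each group, and their summed level was between 11380 and 13610 CPM in every library. Of 10 leukocyte markers, 3 (LYZ, CD68 and CD14) exceeded 1 CPM, while PTPRC had 4 counts over all libraries and CD163, MS4A1 and TYROBP had 0. The summed leukocyte level, nearly all of it LYZ (mean 1567 CPM), was 1661 to 1841 CPM with vehicle and 1511 to 1636, 1417 to 1590 and 1274 to 1900 CPM with 20, 100 and 500 µg/mL. High-dose replicate 2 stood apart, with an SD of 0.502 for its log2 difference from the other 2 libraries of its group over 10626 genes, against 0.102 to 0.293 for the other 11 libraries, so the high-dose values of the members and of the listed genes that passed are given with and without it. The mitochondrial rRNA MT-RNR1 took 0.127% to 0.138% of counts with vehicle and 0.104% to 0.122%, 0.297% to 0.345% and 2.73% to 2.89% with 20, 100 and 500 µg/mL, and its part in the results was not tested.

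RefSeq promoter windows (GRCh38.p14) were at hand for 6 of the 9 members. C3, C1S and SERPING1 had none, so no motif was searched for in them. Those of CFB, CD55 and CD59 are shown because, among the members with a window, their high-dose libraries lay apart from vehicle. The choice thus rests on the values seen, and C3, which also lay apart, is missing for lack of a window. Each was searched on both strands for an NF-kB motif, the GAS motif TTCNNNGAA bound by STAT dimers, the ISRE motif (GAAA repeated after 2 bases of any kind) bound by interferon regulatory factors, the AhR core GCGTG and the NRF2 core TGACNNNGC, with matches in capitals. The stretches printed leave out bases of annotated exons. They cover chr6:31945845-31945974 (plus strand, 250 to 121 bases before the RefSeq start of CFB), chr1:207321428-207321518 (plus strand, 250 to 160 bases before that of CD55) and chr11:33736480-33736729 (minus strand, the 250 bases before the first start of CD59).
CFB: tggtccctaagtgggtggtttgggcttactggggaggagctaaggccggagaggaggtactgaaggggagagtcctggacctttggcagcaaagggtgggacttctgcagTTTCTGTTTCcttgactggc
CD55: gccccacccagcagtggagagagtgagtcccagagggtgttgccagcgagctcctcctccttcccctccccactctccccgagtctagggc
CD59: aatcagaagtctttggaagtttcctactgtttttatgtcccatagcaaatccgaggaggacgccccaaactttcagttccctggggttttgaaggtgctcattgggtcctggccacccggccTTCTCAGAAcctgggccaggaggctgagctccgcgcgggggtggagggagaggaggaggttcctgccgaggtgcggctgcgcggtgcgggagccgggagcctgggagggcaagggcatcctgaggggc
The CFB stretch held an ISRE match on the minus strand, 140 to 131 bases before the start, and the rest of its window a GAS match, TTCCGGGAA, 92 to 84 bases before the start. The CD59 window held a GAS match, TTCTCAGAA, and 1 of the 3 windows of C4BPB another, TTCCCAGAA. The CD55, CD46 and CFI windows held none of the 5 motifs. Among 35116 promoter windows of the same length, 3.02% held the ISRE motif, 6.57% the GAS motif, 5.21% the NF-kB motif, 32.2% the AhR core and 10.9% the NRF2 core. These matches are letters in a sequence, and binding was not measured.

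The membrane regulators were the most abundant of the 9 members. Per kilobase of the MANE transcript, the vehicle level was 94.69 CPM for CD46, 25.01 CPM for CD59 and 16.74 CPM for CD55, against 3.05 CPM for C4BPB and 0.958 CPM for CFB. C1S, SERPING1, C3 and CFI were below 0.05 CPM per kilobase. The first 5 kept this order in every group, and C3 moved from the eighth place with vehicle to the sixth at each dose, with 0.131, 0.279 and 0.340 CPM per kilobase at the low, medium and high doses.

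**Figure D1:**
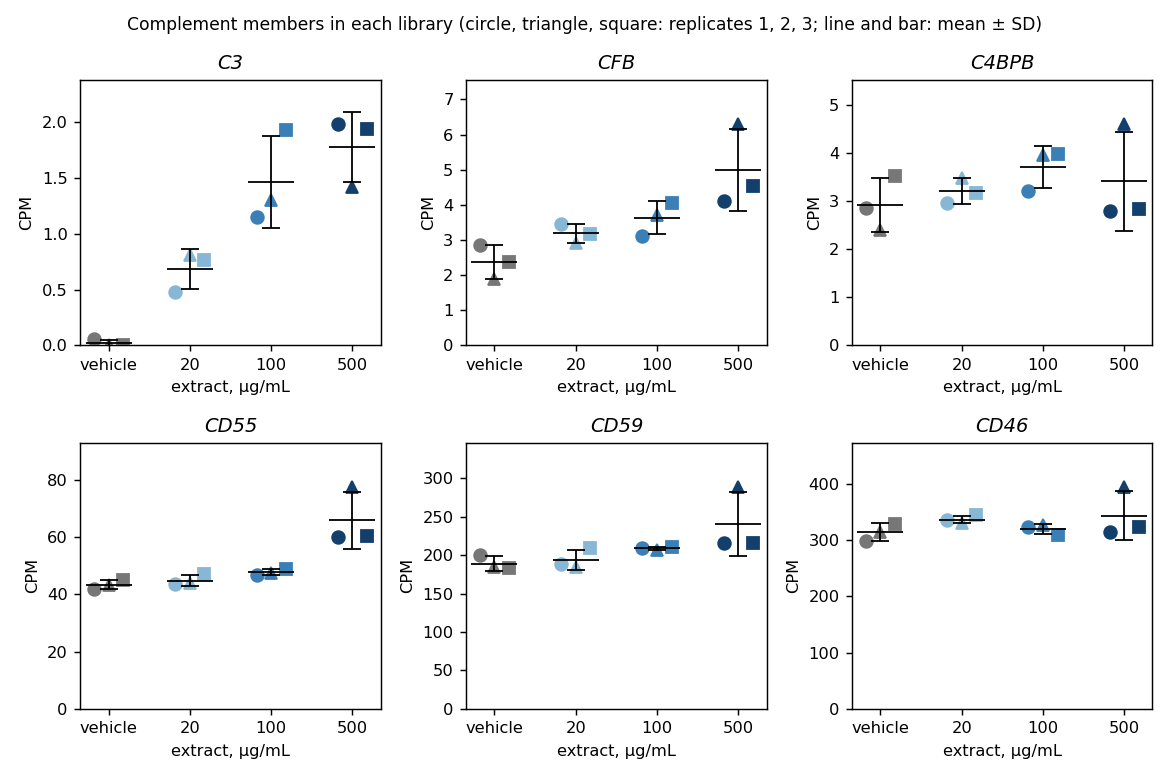
Level of the 6 tested members in each library, in CPM on linear axes that start at 0, by group (vehicle or extract in µg/mL). Symbols are replicates, the line is the mean and the bar the SD of 3 libraries. C3 was at 0.055 CPM or less with vehicle and at 0.481 CPM or more with extract, CD55 was higher in the 3 high-dose libraries, and high-dose replicate 2 (triangle) was the highest of its group for every member shown but C3.

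C3 (ENSG00000125730, chr19:6677704-6730562, minus strand), the component from which C3a and C3b are cut, was higher than vehicle at every dose. Among the vehicle libraries only replicate 1 had a C3 count, 1 count (0.055 CPM), and the others had 0. At the low dose the libraries had 14, 23 and 17 counts, or 0.481, 0.810 and 0.761 CPM. Medium-dose libraries had 25, 40 and 47 counts (1.15, 1.31 and 1.92 CPM), and high-dose libraries 44, 20 and 63 counts (1.98, 1.42 and 1.94 CPM). No dosed library overlapped the vehicle libraries, and the low-dose libraries lay below all those of the medium and high doses, which overlapped each other. In bulk RNA, more transcript per cell and more cells with the transcript cannot be told apart.

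Since 1 vehicle count carries the comparison, the size of the C3 change was poorly determined. Scaled to library size, the summed counts gave a ratio to vehicle of 50 (95% counting interval 8.6 to 2010) at the low dose, 108 (18.9 to 4290) at the medium dose and 136 (24 to 5430) at the high dose. These intervals cover counting error only. By edgeR's quasi-likelihood test with Benjamini-Hochberg adjustment over all genes tested, the adjusted p was 0.00799, 0.000218 and 3.96e-05 in this order, so C3 was a differentially expressed gene (DEG, changed more than 1.5-fold at an adjusted p below 0.05) at each dose. The fitted log2 fold changes were 5.20 (SE 0.69), 6.30 (SE 0.60) and 6.61 (SE 0.59), and they rest on the vehicle libraries. Without vehicle replicate 1, the only one with a count, they were 7.13, 8.23 and 8.54, and without vehicle replicate 2 they were 4.53, 5.63 and 5.94. At the low dose the call was lost without vehicle replicate 2 (adjusted p = 0.107 by edgeR) or replicate 3 (adjusted p = 0.0646, log2 fold change 4.79). Without high-dose replicate 2 the high-dose value was 6.74 (adjusted p = 3.47e-07 by edgeR). C3 shares bases on its strand with GPR108, whose mean was 30.6 CPM and whose log2 fold change at the high dose was 0.05 (adjusted p = 0.821 by edgeR).

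The doses themselves were also compared. C3 was 2.73 times as high at the high dose as at the low dose by summed counts (95% counting interval 1.97 to 3.82), with a log2 fold change of 1.40 (SE 0.30) and an adjusted p of 0.0272 by edgeR. That call was lost in 7 of 19 alternatives, among them the fit to these 2 groups alone (adjusted p = 0.091) and the fits without any 1 low-dose library or without high-dose replicate 1 or 3, where the log2 fold change was between 1.20 and 1.57. Leaving out high-dose replicate 2 gave 1.52 (adjusted p = 0.0034 by edgeR). Between the high and medium doses the C3 difference was 0.31 on the log2 scale (95% interval -0.30 to 0.91, adjusted p = 0.688 by edgeR), which does not separate these doses. It was 0.42 (adjusted p = 0.576) once high-dose replicate 2 was left out.

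CFB (ENSG00000243649, chr6:31945650-31952086, plus strand) encodes factor B, the serine protease of the alternative pathway convertase. Its level was 2.86, 1.88 and 2.37 CPM with vehicle and 3.47, 2.92 and 3.18 CPM with 20 µg/mL. It was 3.12, 3.72 and 4.05 CPM with 100 µg/mL, and with 500 µg/mL 4.10, 6.30 and 4.55 CPM. Every dosed library was above every vehicle library, while the ranges of neighbouring doses overlapped only between the low and medium doses. The counts behind these values were between 52 and 148 per library. At the high dose CFB was a DEG with a fold change of 2.10 (log2 1.07, SE 0.19, adjusted p = 0.00622 by edgeR's quasi-likelihood test). Neither its log2 fold change of 0.65 with 100 µg/mL (SE 0.20, adjusted p = 0.196) nor that of 0.46 with 20 µg/mL (adjusted p = 0.608) passed the edgeR test. Without high-dose replicate 2 the high-dose value was 0.91 (adjusted p = 0.00147) and the medium-dose value passed (0.66, adjusted p = 0.0213, edgeR). The high-dose call was lost when edgeR was fitted to these 2 groups alone (adjusted p = 0.0926). CFB shares a few bases with the end of its neighbour C2, which had a mean of 0.506 CPM.

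**Figure D2:**
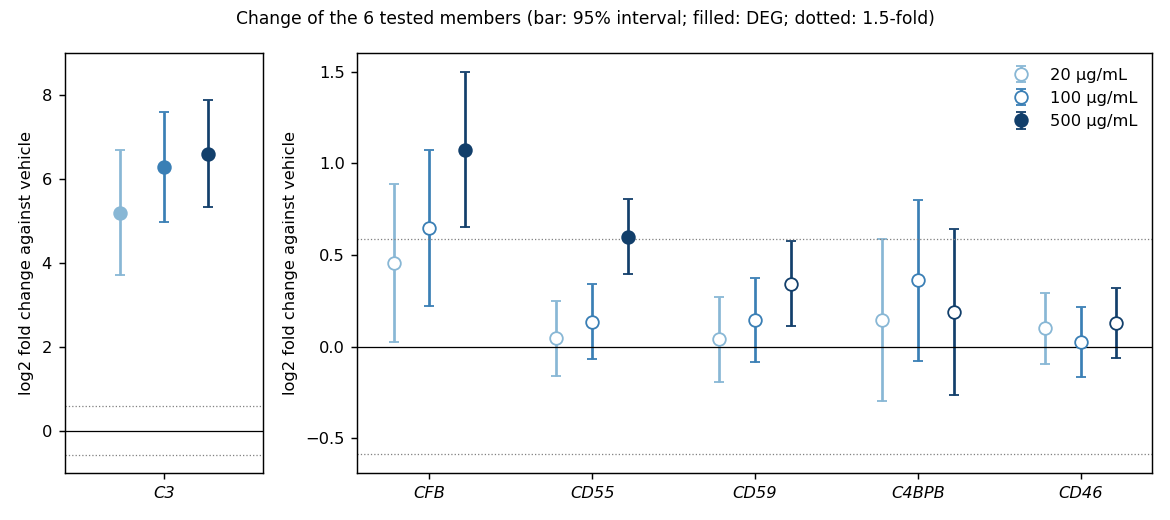
Log2 fold change of the 6 tested members at each dose against vehicle, with 95% intervals from edgeR's fit, on separate linear axes for C3 and the others. Filled points are DEGs and dotted lines mark a fold change of 1.5. C3 is filled at all 3 doses, CFB and CD55 at 500 µg/mL alone, and no C4BPB, CD46 or CD59 point is filled.

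The soluble members CFI, SERPING1 and C1S were at the edge of detection and were not tested. CFI (ENSG00000205403, chr4:109731008-109802150, minus strand), the protease that cleaves C3b and C4b, had 1 count in all, in medium-dose replicate 2. SERPING1 (ENSG00000149131, chr11:57597387-57619171, plus strand), the inhibitor of the C1 proteases, had 1 count, in vehicle replicate 2. For a group without a count, 3 counts over its libraries allow a level of up to 0.0406 CPM with vehicle and up to 0.0376, 0.039 and 0.0436 CPM with 20, 100 and 500 µg/mL, counting error only. C1S (ENSG00000182326, chr12:6988259-7071032, plus strand), a protease of the C1 complex, had 8 counts with vehicle and 12, 9 and 8 at the low, medium and high doses, and every library had between 1 and 6. A change of C1S was not detectable at this depth. It overlaps LPCAT3 on the opposite strand, which had a mean of 83.8 CPM, and the strand setting of the counting is not stated, so these few C1S counts are uncertain.

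C4BPB (ENSG00000123843, chr1:207088860-207099993, plus strand) encodes the beta chain of C4b-binding protein, a soluble inhibitor of the classical convertase. With vehicle it stood at 2.86, 2.39 and 3.52 CPM, and at the high dose at 2.79, 4.60 and 2.83 CPM. The low-dose libraries had 2.95, 3.49 and 3.18 CPM and medium-dose libraries 3.21, 3.95 and 3.97 CPM. All groups overlapped, and high-dose replicate 2 alone exceeded 4 CPM. Its log2 fold changes against vehicle were 0.15 (95% interval -0.30 to 0.59), 0.36 (-0.08 to 0.80) and 0.19 (-0.26 to 0.64) at the low, medium and high doses, with adjusted p-values of 0.89, 0.535 and 0.68 by edgeR. Without high-dose replicate 2 the last was -0.04.

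Of the membrane regulators, CD55 (ENSG00000196352, chr1:207321519-207386804, plus strand), or decay-accelerating factor, which dissociates the convertases, was the one that passed the test as a DEG. It stood at 41.9, 43.2 and 45.0 CPM with vehicle, 43.6, 43.8 and 47.0 CPM with 20 µg/mL and 46.7, 47.5 and 48.7 CPM with 100 µg/mL. The high-dose libraries had 59.9, 77.3 and 60.3 CPM, all above every other library, with replicate 2 the highest. The high-dose fold change of 1.51 was just past the limit of 1.5 (log2 0.60, SE 0.09, 95% interval 0.39 to 0.80, adjusted p = 0.00246 by edgeR's quasi-likelihood test). The medium-dose libraries did not overlap those of vehicle, but the difference of 0.14 did not pass (adjusted p = 0.638), nor did 0.05 at the low dose (adjusted p = 0.925, edgeR). CD55 was also higher at the high dose than at the low dose (log2 0.55, adjusted p = 0.00581) and the medium dose (log2 0.46, adjusted p = 0.0416 by edgeR), each by less than 1.5-fold. These differences without high-dose replicate 2 were 0.43 (adjusted p = 0.000137) and 0.34 (adjusted p = 0.00356, edgeR). The latter passed in only 7 of 20 alternatives, and the former exceeded 1.5-fold without low-dose replicate 3, high-dose replicate 1 or high-dose replicate 3.

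Whether CD55 counted as a DEG at the high dose turned on the 1.5-fold limit. It fell below the limit without high-dose replicate 2 (log2 0.47, adjusted p = 3.48e-05), without vehicle replicate 1 (0.57, adjusted p = 0.0149) and under scaling by total counts (0.45, adjusted p = 0.00653), while the edgeR p stayed under the threshold. In the edgeR fit to these 2 groups alone the p itself missed the threshold (adjusted p = 0.0824).

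CD59 (ENSG00000085063, chr11:33703010-33736479, minus strand), which blocks assembly of the membrane attack complex, had 200, 184 and 183 CPM with vehicle and 217, 288 and 216 CPM at the high dose. With 20 µg/mL it had 189, 185 and 209 CPM and with 100 µg/mL 210, 207 and 211 CPM. The high- and medium-dose libraries lay above all vehicle libraries. None of the differences passed edgeR's test, with log2 differences from vehicle of 0.34 (95% interval 0.11 to 0.57, adjusted p = 0.0837) for 500 µg/mL, 0.15 (adjusted p = 0.653) for 100 µg/mL and 0.04 (adjusted p = 0.946) for 20 µg/mL. Without high-dose replicate 2 the high-dose difference was smaller, 0.19, and passed (adjusted p = 0.0356 by edgeR), below 1.5-fold.

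CD46 (ENSG00000117335, chr1:207752037-207795513, plus strand), the cofactor with which factor I cleaves C3b and C4b on the cell's own surface, was the most abundant member. It had 298, 315 and 330 CPM with vehicle and 314, 394 and 323 CPM at the high dose. With 20 µg/mL it had 335, 331 and 344 CPM, and with 100 µg/mL 323, 328 and 309 CPM. Vehicle overlapped the medium and high doses, and the low dose lay just above it. The log2 fold changes of 0.10 (95% interval -0.09 to 0.29), 0.03 (-0.17 to 0.22) and 0.13 (-0.06 to 0.32) at the low, medium and high doses had adjusted p-values of 0.827, 0.941 and 0.469 by edgeR. Under scaling by total counts, which moved the median of all genes at the high dose from 0.01 to -0.13, the high-dose value of CD46 was -0.02. Leaving out high-dose replicate 2 gave 0.02.

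Ratios of counts within a library need no library scaling, and this comparison was added after the values were seen. CD55 counts were 14.04%, 13.71% and 13.65% of CD46 counts with vehicle and 19.1%, 19.62% and 18.65% at the high dose, with no overlap. At the low dose they were 13.0%, 13.22% and 13.66%, and at the medium dose 14.45%, 14.49% and 15.73%. In high-dose replicate 2, where both genes were highest in CPM, the ratio was within 1.0 percentage point of those of the other high-dose libraries. The mean ± SD rose from 13.8% ± 0.21 to 19.1% ± 0.49 (n = 3 each), so CD55 and CD46 changed unequally. CD59 counts were 60.4% ± 5.9 of CD46 counts with vehicle and 69.6% ± 3.3 at the high dose (n = 3 each), and these ranges, 55.67% to 66.98% and 66.7% to 73.19%, overlapped.

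**Figure D3:**
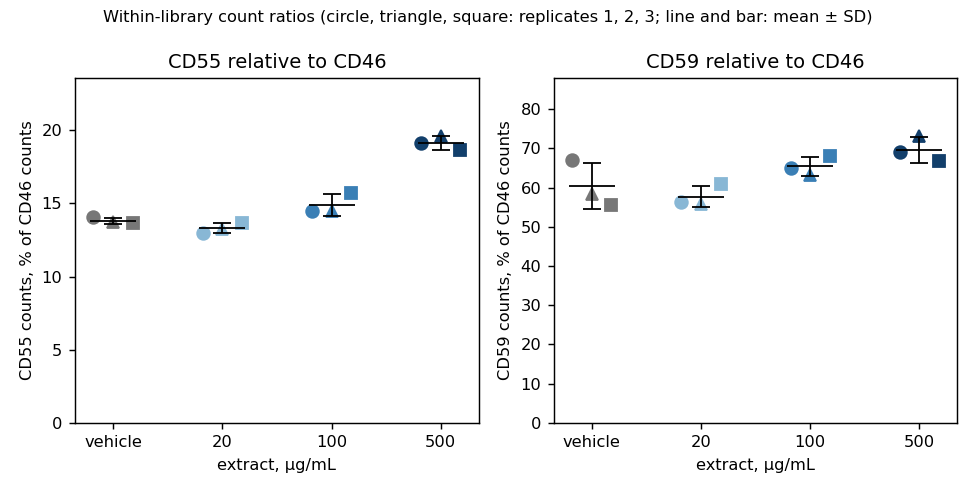
CD55 counts (left) and CD59 counts (right) as a percentage of CD46 counts in the same library, by group, on axes that start at 0. Symbols are replicates, the line is the mean and the bar the SD of 3 libraries. CD55 lies between 18.65% and 19.62% at 500 µg/mL and at 15.73% or less in all other libraries, while the CD59 points of vehicle and 500 µg/mL overlap.

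Among the 9 members, 3 were DEGs at the high dose (C3, CFB and CD55), all upregulated, where 1.26% of all genes tested were upregulated DEGs. At the medium and low doses C3 was the only one, where 0.384% and 0.065% of all genes were upregulated DEGs. C3 passed the filter on low counts only through the dosed libraries. Without overlap with vehicle, 4 of the 6 tested members were higher at the high dose (10.5% of all genes), 4 with 100 µg/mL (14.5%) and 3 with 20 µg/mL (11.4%). The median log2 fold change of the 6 was 0.47, 0.25 and 0.12 at the high, medium and low doses, against 0.01, -0.01 and -0.001 for all genes tested. C3 is the highest of the 6, so its uncertain size does not move these medians, but its inclusion does. Among the other tested members the middle value was 0.34 (CD59) at the high dose. It was 0.15 (CD59) at the medium dose and 0.10 (CD46) at the low dose. For the high against the low dose, C3 was the 1 upregulated DEG of the 6 (0.748% of all genes), and 2 passed the edgeR p alone (1.44%). For the high against the medium dose none was a DEG (0.319% of all genes were upregulated DEGs), and CD55 passed the p alone (0.572%). The members and lists were chosen with earlier results known, so these counts are descriptions.

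**Figure D4:**
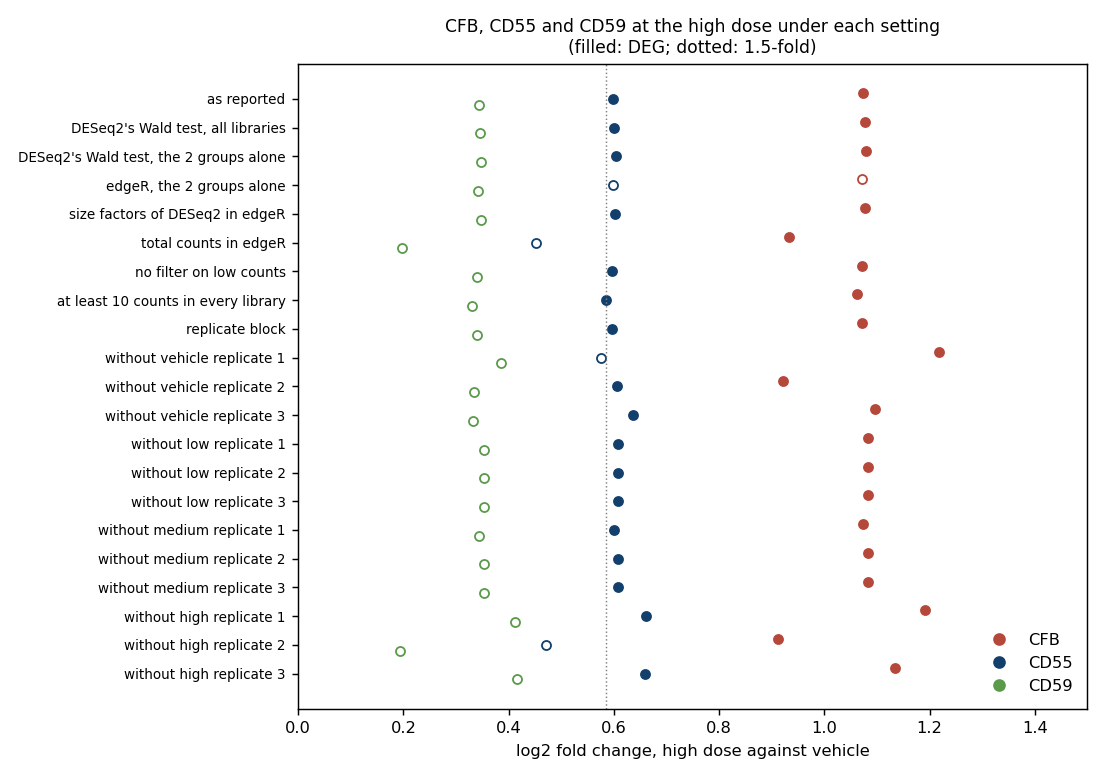
Log2 fold change of CFB, CD55 and CD59 at the high dose against vehicle under each setting (rows: the reported fit, other tests, scalings and filters, and each library left out). Filled points are DEGs and the dotted line marks a fold change of 1.5. CD55 lies beside the line and is not a DEG in 4 of 20 alternatives, CFB is a DEG in 19 of 20, and CD59 in none.

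Of 51 other complement genes, 14 were tested, 20 had no count in any library and 8 exceeded 1 CPM in a group mean. The initiators of the classical and lectin pathways and the terminal components were mostly among those not tested. At the high dose 1 of the 14 was a DEG, an upregulated one, where 1.26% of all genes were, and none at the medium or low dose. Their median log2 fold change was 0.004, -0.04 and 0.06 at the high, medium and low doses. The DEG was ITGAM, which encodes the alpha chain of complement receptor 3, at 1.49, 1.00 and 1.67 CPM with vehicle and 2.16, 2.05 and 2.64 CPM at the high dose (log2 0.77, SE 0.20, adjusted p = 0.0473 by edgeR). It was a DEG in only 5 of 20 alternatives, and its call was lost on leaving out any library but vehicle replicate 3 or high-dose replicate 2. Without the latter it was 0.85 (adjusted p = 0.0127, edgeR). ITGB2, the gene of that receptor's beta chain, was not tested. It had 1 count with vehicle and 1, 1 and 0 counts at the low, medium and high doses. Scaled by total counts, ITGAM was not called (log2 0.64, adjusted p = 0.0764) and CFP, the gene of properdin, was downregulated (log2 -1.13, adjusted p = 0.0448, edgeR). Without high-dose replicate 2, C4A (log2 1.56, adjusted p = 0.0399) and C4BPA, the alpha chain of C4b-binding protein (log2 1.05, adjusted p = 0.0269, edgeR), were DEGs too. C4A was a DEG in 1 of 17 alternatives and C4BPA in 1 of 19. C4A had 16 counts over the vehicle libraries and 39 over those of the high dose. It passed the filter on low counts only through dosed libraries. C4A has a near-identical copy, C4B (24 counts with vehicle and 19 at the high dose), so its reads are uncertain. CFP, C4A and C4BPA were picked out after their values were seen.

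The response of C3 and CFB to cytokines is textbook knowledge, so 32 genes of the cytokines, receptors and transcription factors concerned were examined, of which 25 were tested. The 7 not tested were IL1A, IL1B, IL6, TNF, IFNG, TNFRSF1B and SOCS3. IFNG had no count in any library, and IL6 had 1 count, at the medium dose. TNF had 0 counts with vehicle and 4, 8 and 5 at the low, medium and high doses. In the same order, IL1A had 6, 2, 7 and 5 counts and IL1B 3, 3, 5 and 11. At the high dose 2 were DEGs, both upregulated (1.26% of all genes), and 5 were higher by the p alone (2.82% of all genes), against 0 DEGs at the medium and low doses. The median log2 fold change was 0.09, 0.14 and 0.08 at the high, medium and low doses. IL17C, an epithelial cytokine of the IL-17 family, had 1, 2 and 2 counts with vehicle and 24, 7 and 31 counts at the high dose, without overlap. Its levels were 0.055, 0.061 and 0.088 CPM with vehicle and 1.08, 0.496 and 0.953 CPM at the high dose (log2 3.60, SE 0.44, adjusted p = 0.000383 by edgeR), and without high-dose replicate 2 the log2 value was 3.81 (adjusted p = 1.35e-05). It was a DEG in the 19 alternatives in which it was tested. With at most 0.328 CPM in any library outside the high dose, IL17C passed the filter on low counts through the high-dose libraries, and a minimum of 10 counts in every library removed it. IFNGR1, the ligand-binding chain of the interferon gamma receptor, had 59.9, 59.0 and 61.5 CPM with vehicle and 81.4, 141 and 77.5 CPM at the high dose (log2 0.73, SE 0.18, adjusted p = 0.0313 by edgeR). High-dose replicate 2 was far above the others, and without it the difference was 0.40 (adjusted p = 0.000168), below 1.5-fold. IFNGR1 was a DEG in 8 of 20 alternatives, and its call was also lost without any 1 vehicle or medium-dose library or low-dose replicate 1.

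The NF-kB family member NFKB2 (log2 0.48, adjusted p = 0.00428), the tumour necrosis factor receptor gene TNFRSF1A (0.38, adjusted p = 0.0122) and the NF-kB inhibitor gene NFKBIA (0.38, adjusted p = 0.023) passed edgeR's test at the high dose below 1.5-fold. These 3 were picked out after their values were seen. The values without high-dose replicate 2 were 0.53 (adjusted p = 0.000156), 0.47 (adjusted p = 1.99e-05) and 0.28 (adjusted p = 0.00883) in this order by edgeR. NFKB2 passed the p in 19 of 20 alternatives and TNFRSF1A in 17, losing it without high-dose replicate 3 (0.36, adjusted p = 0.0514, edgeR). NFKBIA passed in 13, losing it without any 1 vehicle library (0.35 to 0.42, adjusted p from 0.0601 to 0.0869, edgeR). Its levels were 21.4, 22.0 and 20.1 CPM with vehicle and 25.4, 31.4 and 26.1 CPM at the high dose, with replicate 2 the highest and no overlap. NFKB2 stood at a mean of 14.05 CPM with vehicle and 19.55 CPM at the high dose, with no overlap between the libraries, which spanned 13.48 to 14.7 and 17.98 to 21.43 CPM.

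Genes that followed the members most closely over the 12 libraries were found by the root mean square difference of log2 CPM centred on each gene's vehicle mean, among 10623 genes with a mean over 5 CPM. For C3 they were RN7SL2 (0.77), the chemokine gene CXCL1 (0.81) and RN7SL1 (1.17), all at a far greater difference than for the other members. RN7SL1 and RN7SL2 are near-identical copies of the RNA of the signal recognition particle, so their split is uncertain. CXCL1 rose from 1.64 CPM with vehicle to 26.84 CPM at the high dose (log2 4.04, adjusted p = 1.12e-07 by edgeR). With a prior count of 0.5 in place of 2 the third gene was CYP1A1. For CFB they were MYZAP (0.19), NAMPT (0.23), which encodes the rate-limiting enzyme of NAD salvage, and ALAS1 (0.24), the first enzyme of heme synthesis. With the smaller prior count the third was NAMPTP1, a pseudogene of NAMPT. For CD55 they were NARS1 (0.05), the cytosolic asparaginyl-tRNA synthetase, CEBPG (0.06), a bZIP transcription factor, and RCN1 (0.07), a calcium-binding protein of the endoplasmic reticulum, with either prior count. Their high-dose log2 fold changes were 0.54, 0.52 and 0.65, against 0.60 for CD55. This likeness is a description of these libraries.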

How the data were processed

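RNA libraries of HT29 cells were sequenced as 100 bp paired ends from a directional mRNA kit. The authors' reads went through FastQC 0.11.9, Trim Galore 0.6.5, STAR 2.7.3a and RSEM 1.3.3 on GRCh38, by the submitters' processing notes. The deposited values are expected counts, not normalized, of which 7.39% to 9.65% per library were not whole, and they were rounded. The strand setting is not given in the sources used here.

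Counts were fitted in R 4.3.3 with edgeR 4.0.16 by its robust quasi-likelihood test, after filterByExpr and TMM, over all 12 libraries, with the 4 groups as terms and Benjamini-Hochberg adjustment over 15374 genes. The common dispersion was 0.0126. CPM used TMM-scaled library sizes, and log2 CPM a prior count of 2. The lowest TMM factor, 0.887, was that of high-dose replicate 2, and the highest of any library was 1.04. The DEG limits, 1.5-fold and an adjusted p of 0.05, were those of the study. Library totals were between 15941255 and 33866644, and 3 counts over a group correspond to 0.0376 to 0.0436 CPM. Gene positions and overlaps came from GENCODE for GRCh38, and promoters from RefSeq. No 2 libraries of a group were duplicates. The tests were also run on simulated counts. The genes changed there were not scarce with vehicle, and no library was made to stand apart. The cases of C3, IL17C and high-dose replicate 2 were therefore not covered. DESeq2 1.42.0, other scalings and filters, a replicate block and leaving out each library were alternatives.

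Named by rule were all members, the DEGs of the 2 other lists and the 3 genes nearest in pattern to each member that was a DEG. NFKB2, TNFRSF1A, NFKBIA, CFP, C4A and C4BPA were named outside it, after their values were seen. So were ITGB2 and the 7 inducers and mediators that were not tested. The members and lists were chosen with earlier results of these data known. Other libraries of the study were not analysed here.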

Additional observations from a re-analysis of the deposited data

How the results depend on the processing

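C3 was a DEG at the high dose in 19 of 19 alternatives (log2 5.94 to 8.54) and at the medium dose in the 18 that gave an adjusted p. CFB at the high dose was called in 19 of 20 (log2 0.91 to 1.22) and CD55 in 16 of 20 (log2 0.45 to 0.66). No called value turned its direction. Depth limits C3, whose vehicle level rests on 1 count, and C1S, CFI and SERPING1. The cause of the changes listed here was not tested unless stated.

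Leaving out 1 library gave these ranges of DEG counts. For the high dose they were 310 to 768 of all genes (451 as reported), highest without high-dose replicate 2 and lowest without vehicle replicate 2, 2 to 3 members, 0 to 3 other complement genes and 1 to 2 inducers and mediators. Medium-dose ranges were 52 to 249 of all genes (104 as reported), 1 to 2 members and 0 to 1 inducers and mediators. Low-dose ranges were 10 to 109 of all genes (17 as reported) and 0 to 1 members. The high against the low dose gave 160 to 335 (243 as reported) and 0 to 1 members, and the high against the medium dose 44 to 100 (75 as reported). High-dose replicate 2 left out gave the highest count of all genes in each of these comparisons.

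Without a minimum fold change, 887 genes passed at the high dose, 458 for the high against the low dose and 137 for the high against the medium dose, with 5 inducers and mediators at the high dose and 2 and 1 members in the dose comparisons. DESeq2 on all libraries gave 59 DEGs at the low dose. On 2 groups alone, DESeq2 gave 158 at the medium and 76 at the low dose, 0 other complement genes and 1 inducer at the high dose, and 0 members at the medium dose, where it gave C3 no adjusted p. edgeR on 2 groups alone gave 172, 191 and 51 at the high, medium and low doses, against 451, 104 and 17 as reported. The number thus fell at the high dose and rose at the others. For the high dose against the low and medium doses it gave 87 and 10. At the high dose 1 member, 0 other complement genes and 1 inducer were DEGs, and 0 members for the high against the low dose. Total counts gave 708 DEGs at the high dose, 140 upregulated and 568 downregulated against 193 and 258 as reported, 449 for the high against the low dose (82 and 367 against 115 and 128 as reported), and 1 inducer. They moved the median log2 fold change of all genes at the high dose from 0.01 to -0.13. Without a filter the low dose gave 34 DEGs and the high dose 0 other complement genes. Requiring 10 counts in every library removed C3, which left 0 member DEGs at the medium and low doses and for the high against the low dose, and 1 inducer at the high dose.

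No pairing by replicate number was seen. The correlation of deviations was over 0.1 in 5 of 18 same-numbered pairs (median -0.08) and in 14 of 36 other pairs (median 0.06). High-dose replicate 2, which stood apart, had the highest correlation (0.541, with vehicle replicate 1), so these values cannot exclude pairing. With the replicate block, 0 other complement genes and 1 inducer were DEGs at the high dose, and 0 members for the high against the low dose, where C3 had an adjusted p of 0.058 by edgeR. The block changed no other DEG call on a member.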
